A study of Chlorocebus sabaeus with 18 samples.

Results

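Cassette exons are exons that are either kept in the messenger RNA or skipped as a whole between 2 flanking exons. They were taken from the authors' deposited EventPointer tables, which list the same 6311 splicing events for each of 5 comparisons and give each event a type. The 1580 events whose type was Cassette Exon are described here. They lay in 1361 genes, of which 1178 held 1 event and 183 held 2 or more, with at most 5 in a gene.

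RNA had been sequenced from COS-7 cells, a transformed kidney line of the African green monkey, in 18 samples. The 6 groups of 3 samples were those given the FMR1 leader with 60 CGG repeats (CGG), those made to overexpress TRA2A (TRA_OE), those in which TRA2A was knocked down (siTRA), those with both repeat and knockdown (CGG_siTRA), those with both repeat and overexpression (CGG_TRA), and control COS-7 cells (CTL). The titles of the TRA_OE samples read GFP_TRA, and no group with GFP alone is listed. The labels give neither an empty vector nor a control siRNA, so in a comparison with CTL transfection and the named treatment cannot be told apart. Separate cultures are not stated for the replicates, and the p-values below reflect the variation among these samples, which may be technical. The titles of 2 CGG_siTRA samples name different rounds, the first and the third. What a round was is not stated, and the count columns cannot be tied to titles, so rounds cannot be told apart in the CGG_siTRA values. The 3 libraries of a group are called a, b and c. The sequencing files held counts per exon bin for the 15 libraries outside CGG_TRA, with totals over bins from 121142115 to 203957869.

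A cassette exon is recognised by the splicing machinery through its own splice sites and through short enhancers and silencers that bind regulatory proteins. TRA2A is an SR-like protein known to bind purine-rich exonic enhancers and, in most reported cases, to favour inclusion. Very short exons, often called microexons, offer little room for such enhancers and usually keep the reading frame. Expanded CGG repeats of FMR1 cause the tremor and ataxia syndrome FXTAS, and the title of the series names the recruitment of TRA2A in that disease as its subject.

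Delta PSI is the change in percent spliced in, the fraction of transcripts that include the exon, given as a fraction. A positive value is read here as more inclusion in the group named first. The files do not state this direction. It was checked against the counts of the bin inside each event: among exons with a deposited Delta PSI of 0.1 or more in size, the densest inside bin moved to the same side in 32 of 32 for CGG vs CTL and in 33 of 34 for TRA_OE vs CTL. The deposited z score had the sign opposite to the deposited Delta PSI in 1254 events and the same sign in 141 for CGG vs CTL. Deposited tables give no value per sample, so Delta PSI is printed without an error.

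The manipulated gene could be sought only by its behaviour, since no file pairs a gene ID with a name. A single gene, ENSG00000164548.10 on chromosome 7 from 23504780 to 23532041 (GRCh38), showed a level in TRA_OE 2-fold or more above CTL together with a level 2-fold or more down in each knockdown comparison. Its normalised count, the read count divided by the authors' scaling factor, averaged 204614 ± 17346 in TRA_OE, 3914 ± 917 in siTRA, 4274 ± 221 in CGG_siTRA, 16252 ± 701 in CGG and 17097 ± 166 in CTL (SD, n = 3 each). The gene was picked by these levels, so they are no separate check of the manipulation. The gene held 0 of the cassette events. Exons below are named by position in GRCh38, the human assembly to which the submitters' processing notes refer, although the cells are monkey cells.

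The length of the alternative exon could be read for the 601 events that held exactly 1 bin between the flanking exons. Those exons were 3 to 1725 nt long with a median of 91 nt, and 69.7% had a length that is a multiple of 3. Of 65843 other isolated inner bins, the median length was 120 nt and 39.6% had such a length. The distance between the flanking exons had a median of 5082.5 bp over all 1580 events, and 839 events lay on the plus strand and 741 on the minus strand.

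Deposited changes of 0.05 or more in size were more frequent among exons whose length is a multiple of 3. Whether these exons are coding was not checked. In the authors' deposited table for CGG vs CTL, 65 of 419 exons with a length divisible by 3 (15.5%) had a Delta PSI of 0.05 or more in size, against 10 of 182 other exons (5.49%). For TRA_OE vs CTL the deposited counts were 65 of 419 (15.5%) and 18 of 182 (9.89%). Over all 6311 events the share was 10.3% in CGG vs CTL and 11.6% in TRA_OE vs CTL. The gap was smallest in CGG_TRA vs CGG_siTRA, at 13.6% and 11.5%, beside 10.9% of all events. It was 7.64% and 4.4% in CGG_siTRA vs siTRA and 9.07% and 4.95% in CGG_TRA vs CGG, beside 8.41% and 8.19% of all events. Lengths divisible by 3 made up 85.7% of exons of 1 to 30 nt and 67.2% to 71.4% of the longer classes. Divisibility by 3 and length were thus not separated, and the difference between the 2 kinds of exon was not tested.

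Most cassette exons called in cells with the repeat or with raised TRA2A were less included than in CTL, and called events of all types leaned below 0 likewise. In the authors' deposited table for CGG vs CTL, 37 of 1580 passed a Benjamini-Hochberg adjusted p under 0.05, 26 with a Delta PSI below 0, 8 above 0 and 3 at 0. The share of all 6311 events called in that comparison was 1.33%, against 2.34% of the cassette events. By direction, 0.998% of all events were called below 0 and 0.285% above 0. Of the 84 events of all types called, 63 were below 0. For TRA_OE vs CTL the deposited table also gave 37, with 23 below 0, 13 above 0 and 1 at 0, beside 1.22% of all events called, 0.776% below 0 and 0.428% above 0. There, 49 of the 77 events of all types called were below 0. Of the cassette exons with a deposited Delta PSI of 0.1 or more in size, 24 of 33 were below 0 in CGG vs CTL, where 2.17% of all events reached that size, and 29 of 36 were below 0 in TRA_OE vs CTL, where 2.25% did. Over all events, 1.51% were at -0.1 or lower in each of these comparisons. The cassette exons reaching that size were 2.09% in CGG vs CTL and 2.28% in TRA_OE vs CTL, near the share of all events. Most changes were small: the median deposited Delta PSI in size was 0.00994 over all cassette exons in CGG vs CTL and 0.0687 over those called.

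With TRA2A knocked down in both arms, few events passed for the repeat. The authors' deposited table for CGG_siTRA vs siTRA held 1 called cassette event, at chromosome 18 from 9119326 to 9119388, and 0.0475% of all events were called, 0.0317% below 0. Its deposited Delta PSI was -0.00913, and the density of its bin did not separate the groups. Overexpression on top of the repeat gave 5 called events in the authors' deposited table for CGG_TRA vs CGG, beside 0.412% of all events (0.254% above 0 and 0.127% below 0), 2 above 0, 2 below 0 and 1 at 0. The deposited table for CGG_TRA vs CGG_siTRA gave 11, beside 0.713% of all events (0.475% above 0 and 0.222% below 0), 6 above 0 and 5 below 0. In that table, however, 37 of the 41 cassette exons with a Delta PSI of 0.1 or more in size were below 0, where 1.95% of all events reached the size and 1.44% did so below 0. Exons that differed by that much between raised and lowered TRA2A were thus mostly less included where TRA2A was raised.

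The shortest exons were less included in CGG and TRA_OE than in CTL and near 0 for the repeat in knockdown cells. For the 42 exons of 1 to 30 nt the median Delta PSI in the authors' deposited tables was -0.0348 in CGG vs CTL, with 32 exons below 0 and 9 above. In TRA_OE vs CTL the deposited median was -0.0239, with 30 below 0 and 11 above. In CGG_siTRA vs siTRA it was 0.000124, with 19 below 0 and 22 above. In CGG_TRA vs CGG the deposited values leaned the other way, with a median of 0.0129, 13 below 0 and 28 above. In CGG_TRA vs CGG_siTRA the deposited median was -0.0119, with 27 below 0 and 14 above. CGG vs CTL and TRA_OE vs CTL share their controls, and CGG is in 2 of these comparisons, so these medians are not independent of each other.

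**Figure D1:**
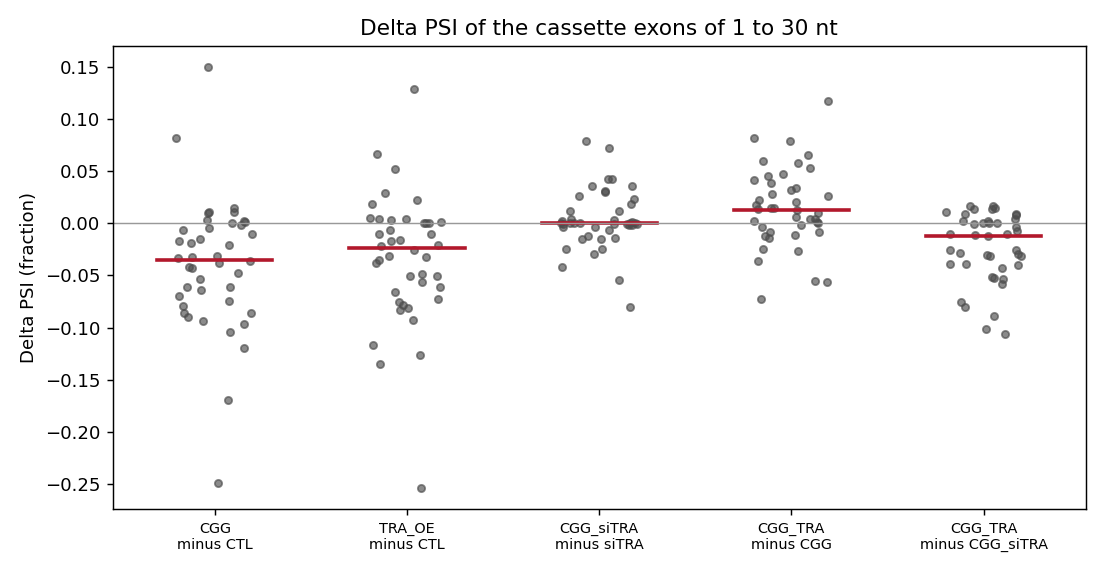
Deposited Delta PSI (fraction, y axis) of each of the 42 cassette exons of 1 to 30 nt in the 5 comparisons of the authors' tables, first-named group minus second. Points are exons and the red line is their median, which lies at -0.0348 in CGG minus CTL, at -0.0239 in TRA_OE minus CTL and near 0 in CGG_siTRA minus siTRA.

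Among these 42 exons, a deposited Delta PSI of -0.05 or lower was listed for 16 in CGG vs CTL and for 15 in TRA_OE vs CTL, and one of 0.05 or higher for 2 and 3. Over all events, 6.18% were at -0.05 or lower and 4.12% at 0.05 or higher in CGG vs CTL, and 7.15% and 4.41% in TRA_OE vs CTL. The lowest was at a 15-nt exon on chromosome 10 (26771075 to 26771089), with -0.248 in CGG vs CTL. A 24-nt exon on chromosome 5 (123605339 to 123605362) had deposited values of -0.12 in CGG vs CTL and -0.126 in TRA_OE vs CTL. An 18-nt exon on chromosome X (30697732 to 30697749) had -0.096 and -0.117 in the same deposited tables. The exception with the largest opposite change was a 21-nt exon on chromosome X (96763100 to 96763120), with deposited values of 0.15 in CGG vs CTL and 0.129 in TRA_OE vs CTL. Of the 42, the deposited tables called 3 in CGG vs CTL and 3 in TRA_OE vs CTL (7.14% each), beside 1.33% and 1.22% of all events. They called 0 in CGG_siTRA vs siTRA, 0 in CGG_TRA vs CGG and 1 in CGG_TRA vs CGG_siTRA. Beside these were 0.0475%, 0.412% and 0.713% of all events. The counts are small, and the differences in share were not tested.

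In CGG vs CTL and TRA_OE vs CTL, medians lay nearer 0 in each class of longer exons than in the shortest class. In the authors' deposited table for CGG vs CTL the median Delta PSI was -0.0101 for the 109 exons of 31 to 60 nt, -0.00108 for the 148 exons of 61 to 90 nt and 0 for the 122 exons of 91 to 120 nt. The deposited medians for TRA_OE vs CTL were -0.00489, -0.000382 and -0.000802 in the same classes. For the 131 exons of 121 to 180 nt and the 49 longer ones the deposited medians were 0 and -0.00143 in CGG vs CTL. In TRA_OE vs CTL the medians of these longest classes were -0.00297, with 84 exons below 0 and 32 above, and -0.00436, near that of 31 to 60 nt. Short exons also carried fewer reads: the median normalised count per exon was 146 for 1 to 30 nt, against 397 for 91 to 120 nt, and the part of depth in the pattern was not tested.

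**Figure D2:**
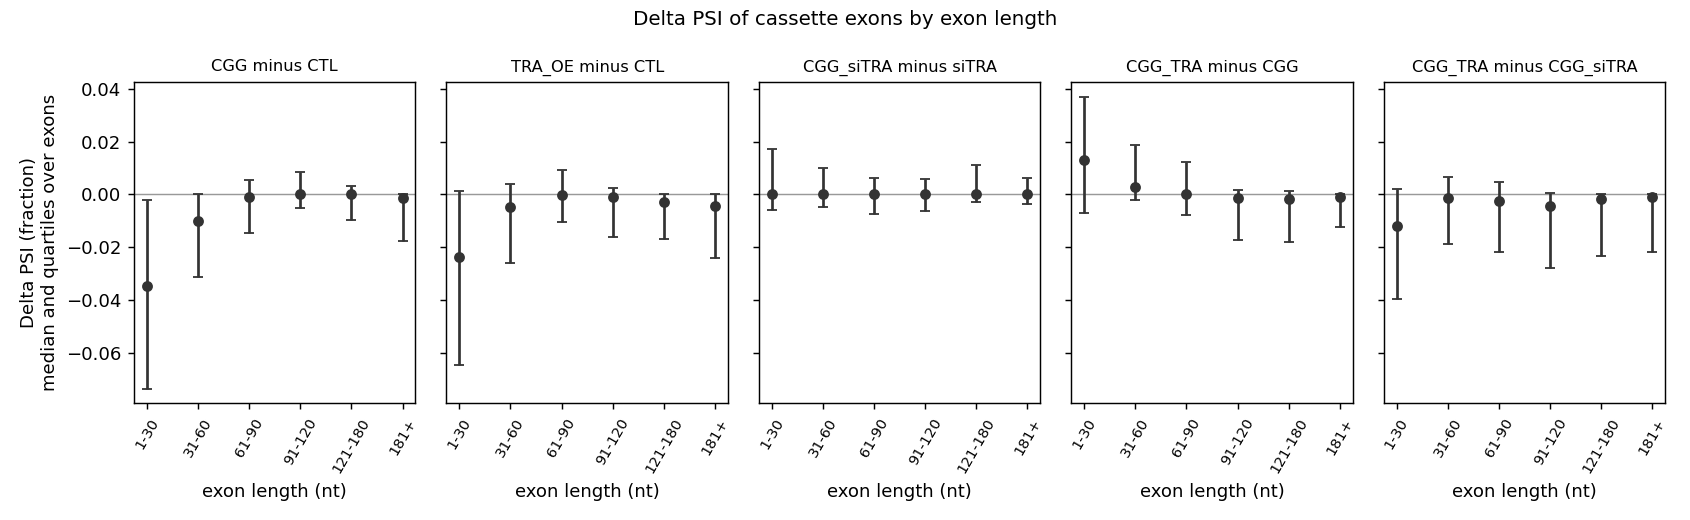
Median deposited Delta PSI (fraction, y axis) of cassette exons with a single inside bin, by exon length in nt (x axis), in the 5 comparisons. Dots are medians over exons and bars run from the lower to the upper quartile, and the median departs furthest from 0 for exons of 1 to 30 nt in CGG minus CTL and TRA_OE minus CTL.

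The bin counts, made from the same samples, gave a value for these exons in every library. The density of an exon is its normalised count per base divided by the mean count per base of the nearest tested bin on each side. Since a read that overlaps any base of a bin is counted there, short bins have raised densities, and densities are compared between libraries and not between exons. Set against the CTL mean of each exon, the median log2 density of the 42 shortest exons was -0.122 to -0.0918 in the 3 CGG libraries, -0.122 to -0.111 in TRA_OE, -0.0533 to -0.00625 in siTRA and -0.0474 to -0.00538 in CGG_siTRA, against -0.00496 to 0.00265 in CTL. The CGG and TRA_OE libraries lay below those of both knockdown groups, with no overlap. Set against the rest of the gene instead of the neighbours, the groups nearly met. The same median was then -0.137 to -0.109 in CGG and -0.112 to -0.0871 in TRA_OE. It was -0.0769 to -0.00977 in siTRA and -0.0869 to 0.0247 in CGG_siTRA. For the 109 exons of 31 to 60 nt both measures are given. Against the neighbours the median was -0.064 to -0.0397 in CGG and -0.0397 to -0.0125 in TRA_OE. It was -0.0226 to -0.0187 in siTRA and -0.00882 to 0.00959 in CGG_siTRA, against -0.00422 to 0.00202 in CTL. Against the rest of the gene it was -0.0435 to -0.0284 in CGG and -0.0397 to -0.00996 in TRA_OE. For siTRA it was then -0.0853 to -0.00344, with library b below every CGG and TRA_OE library. On that measure siTRA b also lay at -0.102 for 121 to 180 nt and at -0.122 for longer exons.

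**Figure D3:**
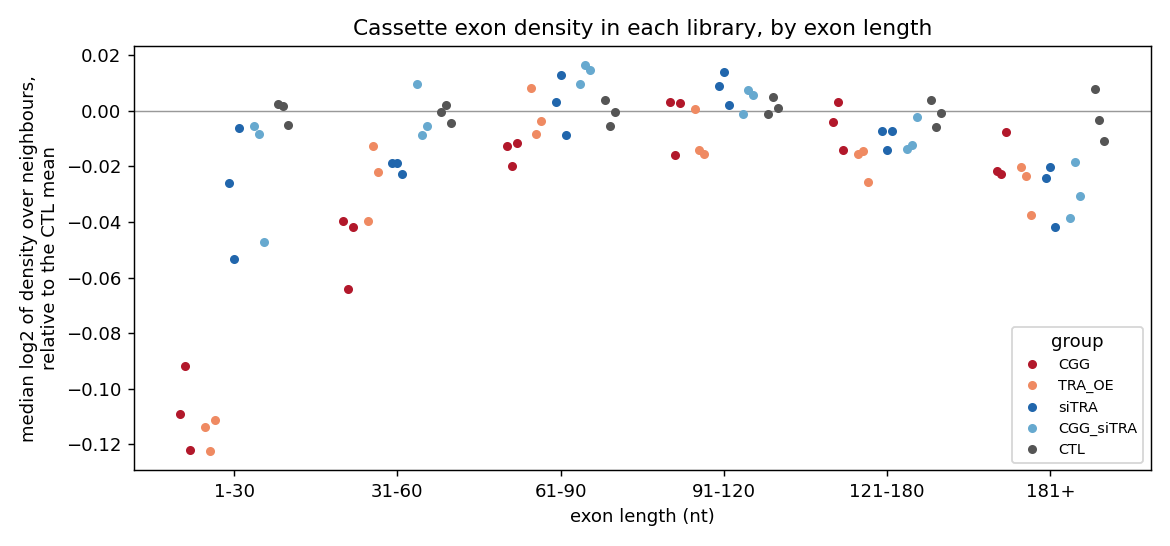
Median over cassette exons of the log2 density relative to the CTL mean (y axis) in each of the 15 libraries, by exon length in nt (x axis). Each dot is a library, coloured by group. The 3 CGG and 3 TRA_OE libraries lie between -0.122 and -0.0918 for exons of 1 to 30 nt, below all other libraries.

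Short bins outside cassette events had medians nearer 0 in 5 of the 6 comparisons with counts, and practically the same median in CGG_siTRA vs siTRA. In the bin test, which asks whether a bin's use changed relative to the rest of its gene, the 42 short cassette exons had a median log2 change in use of -0.12 in CGG vs CTL, with 73.8% below 0. The 456 other isolated bins of 1 to 30 nt had a median of -0.0069, with 51.5% below 0. In TRA_OE vs CTL the medians were -0.0973 and -0.0188, and in siTRA vs CTL they were -0.0276 and -0.0116. In CGG_siTRA vs CGG the short cassette exons had a median of 0.115, with 26.2% below 0, and the other short bins 0.0258, with 43.9% below 0. In TRA_OE vs siTRA, which includes no library with the repeat, the medians were -0.111 and -0.00239. In CGG_siTRA vs siTRA they were 0.0324 and 0.0307. The difference between the 2 kinds of bin was not tested.

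Single exons were then tested on the counts with edgeR's quasi-likelihood test of bin use, fitted on all 15 libraries and adjusted by Benjamini-Hochberg over 265486 bins. Of the 1580 events, 1555 had a tested bin. The longest bin inside each event stood for its exon. In 626 events the longest bin was not the densest and could be a piece of intron, so the count for the densest bin is given beside it. In CGG vs CTL 9 exons were called, 2 higher and 7 lower, or 6 by the densest bin, where 0.25% of all bins were called, 0.148% higher and 0.103% lower. In TRA_OE vs CTL 18 were called, 3 higher and 15 lower, or 7 by the densest bin, beside 0.368% of all bins, 0.185% higher and 0.183% lower. In siTRA vs CTL 24 were called, 13 higher and 11 lower, or 23 by the densest bin, beside 0.508% of all bins, 0.322% higher and 0.186% lower. The authors' deposited DEXSeq tables called more of the same bins, 95 in CGG vs CTL, 93 in TRA_OE vs CTL and 73 in siTRA vs CTL, and also more of all bins, at 2%, 1.32% and 1.83%.

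For knockdown in the presence of the repeat, 11 exons were called in CGG_siTRA vs CGG, 9 higher and 2 lower, or 6 by the densest bin, beside 0.135% of all bins, 0.101% higher and 0.0335% lower. All called bins leaned the same way, 269 of 358 higher (75.1%). Without CGG library b, and likewise without CGG_siTRA library b, 1 exon was called higher and 1 lower. In TRA_OE vs siTRA 8 were called, 1 higher and 7 lower, or 4 by the densest bin, beside 0.396% of all bins, 0.103% higher and 0.293% lower. The authors' deposited DEXSeq tables called 95 in CGG_siTRA vs CGG, 57 higher and 38 lower, and 29 in TRA_OE vs siTRA, beside 3.34% and 0.595% of all bins. In CGG_siTRA vs siTRA edgeR called 0 of 1555, with 60 at an unadjusted p under 0.05, beside 0.0516% of all bins, and DESeq2 called 1 and limma 32. The longest-bin shares were 0.579% in CGG vs CTL, 1.16% in TRA_OE vs CTL, 1.54% in siTRA vs CTL, 0.707% in CGG_siTRA vs CGG and 0.514% in TRA_OE vs siTRA. With the densest bin they were 0.386%, 0.45%, 1.48%, 0.386% and 0.257%, so that for TRA_OE the share was near that of all bins. The counts hung on single libraries: leaving out CGG_siTRA library c gave 20 in CGG_siTRA vs CGG, and leaving out CGG library b gave 2, while leaving out siTRA library c gave 23 in TRA_OE vs siTRA. By edgeR, 0 exons were called in opposite directions in TRA_OE vs CTL and siTRA vs CTL, 2 comparisons that share the CTL libraries. Shared controls move both comparisons the same way, and calls were few. The matching count over all bins is not given here, so the 0 is not read as a trait of cassette exons.

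A first set of exons had lower density in each transfected group than in CTL, with raised TRA2A and with lowered TRA2A alike. Those shown are ones whose longest bin was also the densest. The 15-nt exon on chromosome 10 (26771075 to 26771089, minus strand) had a density of 1.68, 1.48 and 1.30 in CGG, 1.22, 1.48 and 1.42 in TRA_OE, 1.57, 1.76 and 1.67 in siTRA and 1.76, 1.66 and 1.99 in CGG_siTRA, against 2.75, 2.59 and 2.69 in CTL. All 12 transfected libraries lay below the 3 CTL libraries. Its log2 change in use was -0.77 (SE 0.12, adjusted p = 4.02e-05, edgeR) in CGG vs CTL, -0.92 (SE 0.12, adjusted p = 9.36e-08, edgeR) in TRA_OE vs CTL and -0.62 (SE 0.12, adjusted p = 0.00268, edgeR) in siTRA vs CTL. All 3 calls held when any 1 library of the groups compared was left out. The authors' deposited Delta PSI was -0.248 in CGG vs CTL (adjusted p = 6.93e-12) and -0.254 in TRA_OE vs CTL (adjusted p = 3.72e-10).

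The 36-nt exon on chromosome 15 (59668103 to 59668138, minus strand) was lower in every transfected group as well. Its density was 0.694, 0.763 and 0.697 in CGG, 0.726, 0.834 and 0.793 in TRA_OE, 0.702, 0.679 and 0.730 in siTRA and 0.789, 0.638 and 0.710 in CGG_siTRA, against 1.13, 1.10 and 1.24 in CTL. The 4 transfected groups overlapped each other and none overlapped CTL. The log2 change in use was -0.61 (SE 0.14, adjusted p = 0.00832, edgeR) in CGG vs CTL, -0.58 (SE 0.14, adjusted p = 0.0114, edgeR) in TRA_OE vs CTL and, for siTRA vs CTL, -0.67 (SE 0.13, adjusted p = 0.000861, edgeR). The siTRA call held without any 1 library. The CGG call was lost without CTL c, CGG a or CGG c (highest adjusted p = 0.215, edgeR), and the TRA_OE call without CTL a, CTL c, TRA_OE a or TRA_OE b (highest adjusted p = 0.247, edgeR). The authors' deposited Delta PSI was -0.203 in CGG vs CTL (adjusted p = 1.97e-05) and -0.173 in TRA_OE vs CTL (adjusted p = 0.158).

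The 21-nt exon on chromosome 6 (167913403 to 167913423, plus strand) was a further one of the kind. Its density was 2.43, 2.11 and 2.46 in CGG, 2.77, 2.31 and 2.23 in TRA_OE, 2.37, 2.56 and 2.23 in siTRA and 2.86, 2.84 and 2.86 in CGG_siTRA, against 3.60, 3.46 and 3.76 in CTL. The CGG_siTRA libraries lay between CTL and the other transfected groups, above every siTRA and every CGG library. The fall in siTRA vs CTL passed the bin test at -0.70 (SE 0.16, adjusted p = 0.00533, edgeR), a call lost without CTL a (adjusted p = 0.0684, edgeR), while CGG vs CTL gave -0.54 (SE 0.15, adjusted p = 0.15, edgeR). The authors' deposited table called it in both of its comparisons with CTL, at -0.169 in CGG vs CTL (adjusted p = 4.46e-07) and -0.135 in TRA_OE vs CTL (adjusted p = 0.0002).

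Higher use in all 3 of those comparisons was also seen. The 84-nt exon on chromosome 6 (142383760 to 142383843, plus strand) had a density of 0.0556, 0.0507 and 0.0528 in CGG, 0.0563, 0.0501 and 0.0527 in TRA_OE, 0.0585, 0.0646 and 0.0582 in siTRA and 0.0495, 0.0611 and 0.0555 in CGG_siTRA, against 0.0343, 0.0342 and 0.0294 in CTL. All transfected libraries lay above all CTL libraries. Its use rose by a log2 of 0.69 (SE 0.14, adjusted p = 0.00609, edgeR) in CGG vs CTL, 0.76 (SE 0.14, adjusted p = 0.000715, edgeR) in TRA_OE vs CTL and 0.97 (SE 0.14, adjusted p = 6.05e-07, edgeR) in siTRA vs CTL. The CGG call was lost without CTL c, CGG a or CGG c (highest adjusted p = 0.168, edgeR), and the other 2 held without any 1 library. The exon remained rare, and the authors' deposited Delta PSI was 0.0200 in CGG vs CTL (adjusted p = 0.00483) and 0.0222 in TRA_OE vs CTL (adjusted p = 0.0123).

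**Figure D4:**
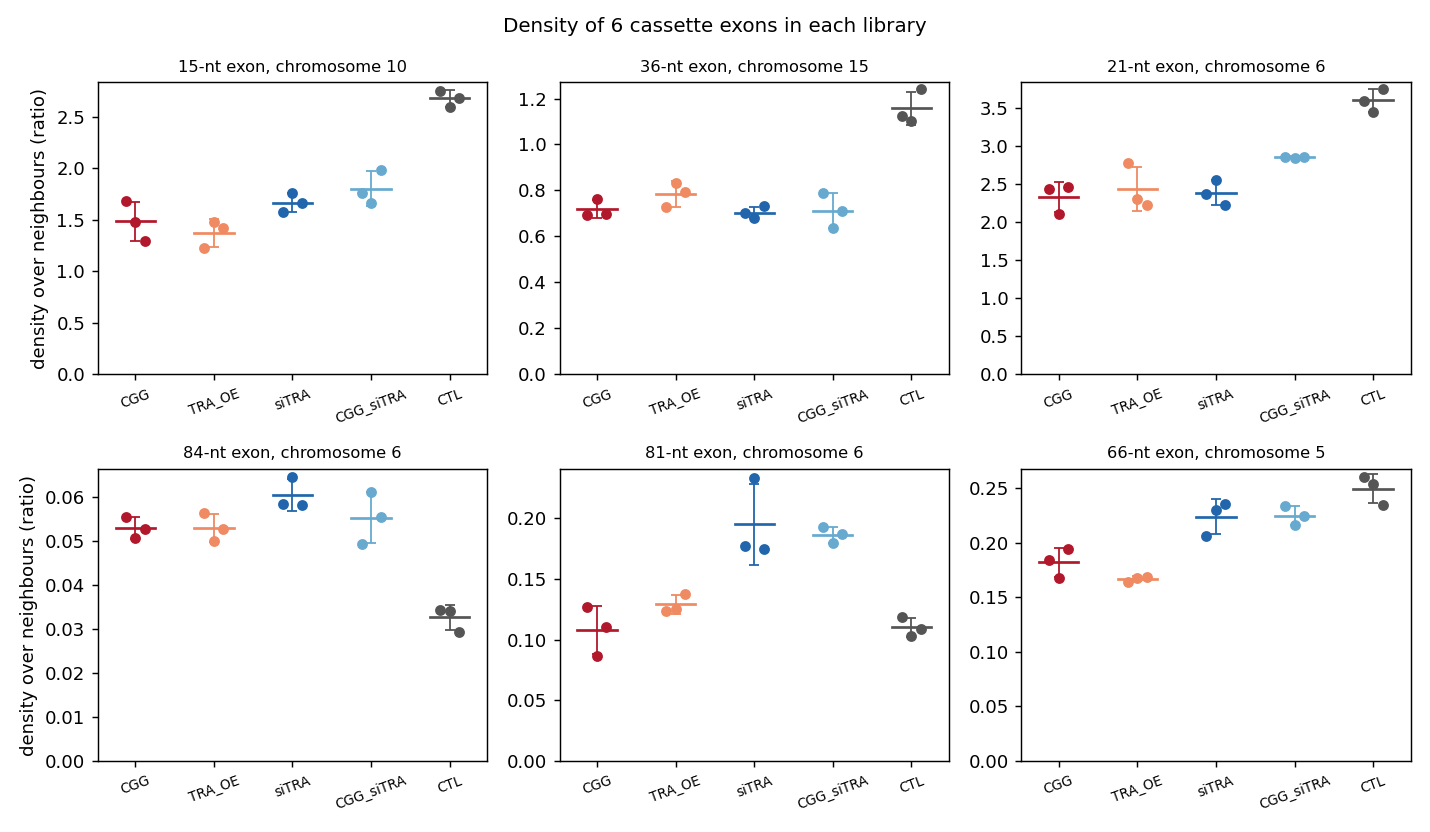
Density over neighbours (ratio, y axis) of 6 cassette exons in each of the 15 libraries. Dots are libraries, lines and bars the mean and SD of a group (n = 3). The 15-nt, 36-nt and 21-nt exons lie lower in every transfected group than in CTL, the 84-nt exon lies higher, the 81-nt exon is raised in siTRA and CGG_siTRA, and the 66-nt exon is lowest in TRA_OE and CGG.

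A second set followed the knockdown. The comparisons siTRA vs CTL and CGG_siTRA vs CGG share no library, and 4 exons were called in the same direction in both. They make up 16.7% of the 24 called in siTRA vs CTL and 36.4% of the 11 called in CGG_siTRA vs CGG, and 1 bin was called in opposite directions. Over all bins, 90 were called in the same direction in both, which is 6.68% of the 1348 called in siTRA vs CTL and 25.1% of the 358 called in CGG_siTRA vs CGG. The difference from cassette exons was not tested. The bin called in opposite directions, of 353 nt on chromosome 12 (56160946 to 56161298, plus strand), was not the densest of its event, and its densest bin was called in neither comparison. By the densest bin 4 exons were called in the same direction in both and 0 in opposite directions. The 81-nt exon on chromosome 6 (70791689 to 70791769, plus strand) had a density of 0.177, 0.233 and 0.175 in siTRA, against 0.119, 0.103 and 0.109 in CTL. With the repeat it was 0.193, 0.179 and 0.187 in CGG_siTRA, against 0.127, 0.0867 and 0.111 in CGG. Neither pair of groups overlapped. The log2 change in use was 0.87 (SE 0.15, adjusted p = 0.00112, edgeR) without the repeat and 0.77 (SE 0.15, adjusted p = 0.0303, edgeR) with it. The call without the repeat was lost when siTRA b was left out (adjusted p = 0.0872, edgeR), and the call with the repeat when any 1 library other than CGG a was left out (highest adjusted p = 0.674, edgeR).

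The 66-nt exon on chromosome 10 (73396044 to 73396109, minus strand) rose in both as well. Its normalised count was 74.4, 108 and 98.6 in siTRA, against 31.1, 30.7 and 49.8 in CTL, and 81.2, 81.1 and 92.1 in CGG_siTRA, against 55.7, 42.5 and 43.1 in CGG. The counts are low, and by count no knockdown library overlapped its comparison group. Counts also follow the level of the gene, whose other bins summed to 41220 to 42051 in CTL and 53671 to 55949 in CGG. The density of the bin was only 0.000626, 0.000641 and 0.00104 in CTL and 0.000842, 0.000697 and 0.000658 in CGG. It thus held very few reads beside its neighbours. The log2 change in use was 1.01 (SE 0.21, adjusted p = 0.00602, edgeR) in siTRA vs CTL, and it was 1.05 (SE 0.21, adjusted p = 0.00792, edgeR) in CGG_siTRA vs CGG. In TRA_OE, with counts of 64.4, 56.7 and 63.9, its use was lower than in siTRA, with a log2 difference of -0.88 (SE 0.20, adjusted p = 0.0206, edgeR). Each of the 3 calls was lost without some 1 library: the first without CTL a, CTL b or siTRA b (highest adjusted p = 0.177, edgeR), the second without CGG b, CGG c or CGG_siTRA b (0.179), and the last without any 1 TRA_OE library or siTRA b (0.512).

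A 120-nt bin on chromosome 11 (85990259 to 85990378, minus strand), which adjoins a denser 9-nt bin of the same event, also rose in both knockdowns. Its density was 0.198, 0.207 and 0.178 in siTRA, against 0.1, 0.113 and 0.111 in CTL, and 0.183, 0.180 and 0.176 in CGG_siTRA, against 0.131, 0.112 and 0.102 in CGG. Its log2 change in use was 0.61 (SE 0.13, adjusted p = 0.00249, edgeR) in siTRA vs CTL, lost without CTL a (adjusted p = 0.0741, edgeR). In CGG_siTRA vs CGG it was 0.60 (SE 0.13, adjusted p = 0.0141, edgeR), lost without any 1 library other than CGG a (highest adjusted p = 0.419, edgeR). The fourth, a 138-nt exon on chromosome 8, fell in both, at -0.81 (SE 0.14, adjusted p = 5.17e-05, edgeR) in siTRA vs CTL, and in CGG_siTRA vs CGG at -0.84 (SE 0.14, adjusted p = 5.21e-05, edgeR), and both calls held without any 1 library. Against its neighbours, however, its density was 0.361 ± 0.049 in siTRA and 0.392 ± 0.014 in CTL (SD, n = 3 each), and these libraries overlapped.

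Another set had its lowest densities in CGG and TRA_OE, with the knockdown groups closer to CTL. The 66-nt exon on chromosome 5 (96726794 to 96726859, plus strand) had a density of 0.185, 0.168 and 0.194 in CGG, 0.164, 0.168 and 0.168 in TRA_OE, 0.206, 0.230 and 0.236 in siTRA and 0.233, 0.216 and 0.225 in CGG_siTRA, against 0.260, 0.254 and 0.235 in CTL. The CGG and TRA_OE libraries lay below all others. Its log2 change in use was -0.48 (SE 0.12, adjusted p = 0.0345, edgeR) in CGG vs CTL and -0.66 (SE 0.12, adjusted p = 0.000149, edgeR) in TRA_OE vs CTL, and -0.28 (SE 0.12, adjusted p = 0.579, edgeR) in siTRA vs CTL. The TRA_OE call held without any 1 library, and the CGG call was lost without each of the 6 in turn (highest adjusted p = 0.441, edgeR). The event itself was not called in the authors' deposited tables, which list a Delta PSI of -0.0688 in CGG vs CTL.

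The 39-nt exon on chromosome 17 (50975863 to 50975901, minus strand) was called in TRA_OE vs CTL at -0.56 (SE 0.13, adjusted p = 0.0094, edgeR). Its density was 0.769, 0.692 and 0.658 in TRA_OE, 0.757, 0.751 and 0.732 in CGG, 0.865, 0.865 and 0.902 in siTRA and 0.875, 0.970 and 0.783 in CGG_siTRA, against 1.03, 0.998 and 0.934 in CTL. The siTRA libraries lay between the TRA_OE and the CTL libraries. The call was lost without CTL a, CTL b, TRA_OE b or TRA_OE c (highest adjusted p = 0.16, edgeR).

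The 36-nt exon on chromosome 4 (113323759 to 113323794, plus strand) changed with the repeat and again when the knockdown was added to it. Its normalised count was 63.9, 45.9 and 65.02 in CGG, against 256, 177 and 206 in CTL, and 124, 92.7 and 76.4 in CGG_siTRA. The density was 0.0812 ± 0.011 in CGG, 0.130 ± 0.035 in CGG_siTRA and 0.124 ± 0.020 in CTL (SD, n = 3 each). The CGG libraries overlapped neither of the other groups. The log2 change in use was -0.82 (SE 0.18, adjusted p = 0.0104, edgeR) in CGG vs CTL and 0.87 (SE 0.19, adjusted p = 0.0165, edgeR) in CGG_siTRA vs CGG, which share the CGG libraries. The call for CGG vs CTL was lost without CTL a, CGG a or CGG b (highest adjusted p = 0.363, edgeR), and that for CGG_siTRA vs CGG without CGG a, CGG b, CGG_siTRA a or CGG_siTRA b (highest adjusted p = 0.367, edgeR). In TRA_OE vs CTL it was -0.32 (SE 0.16, adjusted p = 1, edgeR).

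Other exons were called in siTRA vs CTL alone among the comparisons with counts. The 78-nt exon on chromosome 5 (75399310 to 75399387, minus strand) had a density of 0.197, 0.257 and 0.182 in siTRA, against 0.125, 0.133 and 0.0920 in CTL. The groups did not overlap, and the log2 change in use was 0.88 (SE 0.20, adjusted p = 0.00845, edgeR). It was lost without CTL c or siTRA b (highest adjusted p = 0.273, edgeR). In CGG_siTRA its density was 0.176, 0.153 and 0.167, below every siTRA library. The authors' deposited Delta PSI in CGG_siTRA vs siTRA was -0.133 (adjusted p = 0.365).

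The 162-nt exon on chromosome 4 (38051899 to 38052060, plus strand) rose likewise in siTRA, with a density of 0.201, 0.188 and 0.200, against 0.129, 0.126 and 0.118 in CTL (log2 change in use 0.64, SE 0.10, adjusted p = 0.00552, edgeR). The 174-nt exon on chromosome 17 (16087172 to 16087345, minus strand) fell in siTRA, with a density of 0.0450, 0.0430 and 0.0343, against 0.0659, 0.0665 and 0.0673 in CTL (log2 change in use -0.98, SE 0.22, adjusted p = 0.0131, edgeR). The call on chromosome 4 was lost without CTL b or CTL c (highest adjusted p = 0.0655, edgeR), and that on chromosome 17 without CTL a, CTL c, siTRA b or siTRA c (highest adjusted p = 0.0921, edgeR). For both of these exons the authors' deposited tables list a Delta PSI of 0 in all 5 comparisons. Each comparison has 184 cassette events at 0, and whether such a 0 is a measured value is not stated. Bin use and Delta PSI could therefore not be compared there.

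Some exons were called only by EventPointer. The 127-nt exon on chromosome 1 (85258935 to 85259061, minus strand) had a deposited Delta PSI of -0.162 in TRA_OE vs CTL (adjusted p = 3.98e-05 from the authors' deposited table). Its density was 0.368, 0.408 and 0.343 in TRA_OE, against 0.558, 0.593 and 0.582 in CTL, without overlap, but its bin use missed the threshold at -0.54 (SE 0.15, adjusted p = 0.1, edgeR). The 30-nt exon on chromosome 12 (68316581 to 68316610, minus strand) was called in the authors' deposited tables at -0.133 in CGG vs CTL (adjusted p = 0.000693) and at -0.138 in TRA_OE vs CTL (adjusted p = 0.00395). Its density was 0.569, 0.677 and 0.608 in CGG and 0.603, 0.637 and 0.600 in TRA_OE, against 0.994, 0.760 and 0.857 in CTL, again without overlap. The 129-nt exon on chromosome 14 (39320928 to 39321056, plus strand) had a deposited Delta PSI of -0.172 in TRA_OE vs CTL (adjusted p = 0.000993 from the authors' deposited table). Its density was 0.634, 0.681 and 0.637 in TRA_OE, against 0.748, 0.624 and 0.773 in CTL, and the groups overlapped.

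Raised against lowered TRA2A could be compared with and without the repeat in samples that do not overlap. CGG_TRA has no counts, so its Delta PSI against CGG_siTRA was set beside the bin use of TRA_OE over siTRA. The bin read for this was the densest inside bin, chosen after the values were seen, and not the longest. Of the 40 exons with a deposited Delta PSI of 0.1 or more in size and a tested bin, 35 (87.5%) had bin use of the same sign in TRA_OE vs siTRA. Over all 1374 cassette exons with a value other than 0 in both, the share was 59.5%. Where the deposited Delta PSI was -0.1 or lower, the median log2 bin use in TRA_OE vs siTRA was -0.257 over 36 exons. Of the 11 events called in the authors' deposited table, 9 had the same sign.

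**Figure D5:**
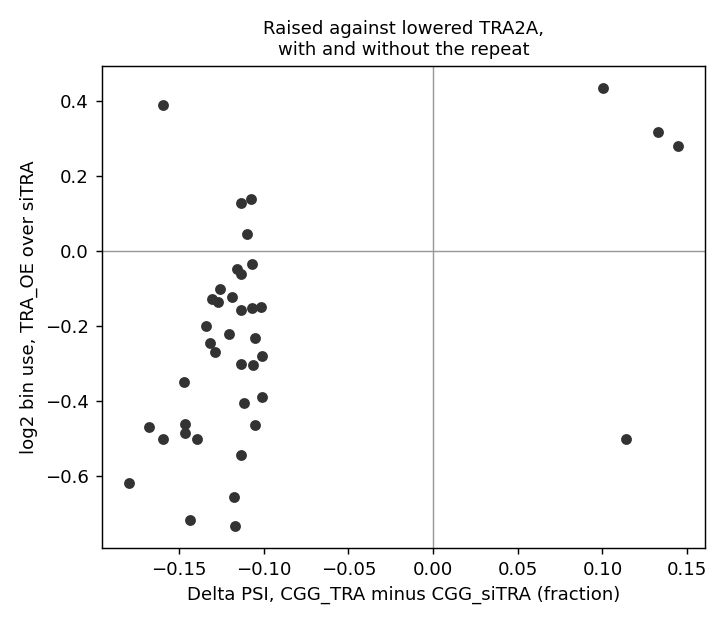
Deposited Delta PSI of CGG_TRA minus CGG_siTRA (fraction, x axis) against the log2 change in bin use of TRA_OE over siTRA (y axis), for cassette exons with a Delta PSI of 0.1 or more in size and a tested bin. Each of the 40 points is an exon, and 35 have the same sign on both axes. Bin use is that of the densest inside bin of each event.

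The exon with the lowest deposited Delta PSI among those called in CGG_TRA vs CGG_siTRA was a 101-nt exon on chromosome 20 (10621314 to 10621414, plus strand), at -0.168 (adjusted p = 0.0421). Without the repeat its log2 bin use in TRA_OE vs siTRA was -0.47 (SE 0.17, adjusted p = 0.622, edgeR), which did not pass. Its normalised counts were 80.0, 64.0 and 67.3 in TRA_OE, against 94.2, 98.9 and 90.8 in siTRA, and did not overlap. The next was an 81-nt exon on chromosome 9 (128272785 to 128272865, minus strand), with a deposited Delta PSI of -0.131 (adjusted p = 0.0223) and counts of 121, 118 and 107 in TRA_OE, against 128, 113 and 136 in siTRA, which overlapped.

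The effect of the repeat was read likewise with and without the knockdown, in samples that do not overlap. Of the 33 exons with a Delta PSI of 0.1 or more in size in the authors' deposited table for CGG vs CTL, 10 (30.3%) had a Delta PSI of the same sign in the deposited table for CGG_siTRA vs siTRA. Over all cassette exons with a value other than 0 in both, 46.9% had the same sign. The median deposited Delta PSI in CGG_siTRA vs siTRA was 0.00691 over the 24 exons that were at -0.1 or lower in CGG vs CTL. By bin use of the densest bin in CGG_siTRA vs siTRA, 14 of 32 such exons (43.8%) had the sign of the Delta PSI in CGG vs CTL, beside 50.6% over all cassette exons. Of the events called in the authors' deposited table for CGG vs CTL, 14 of 34 (41.2%) had the same sign of Delta PSI in CGG_siTRA vs siTRA and 15 of 34 (44.1%) the same sign of bin use. Each of these 4 shares lay below that over all cassette exons, and the differences were not tested.

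Because the 5 deposited comparisons link all 6 groups, Delta PSI could be added along them to place each group relative to CTL. The added values share samples and carry the errors of each step. For siTRA, 41 cassette exons came to 0.1 or higher and 23 to -0.1 or lower. For CGG_siTRA the numbers were 29 and 16. They were 9 and 24 for CGG, 7 and 29 for TRA_OE and 8 and 30 for CGG_TRA. The balance of gained and skipped exons thus differed between groups with and without a knockdown, and the difference was not tested. Values were added for cassette events only, so it is not known whether events of other types differed likewise. In the deposited comparisons with CTL, 1.51% of all events were at -0.1 or lower and 0.666% at 0.1 or higher for CGG. For TRA_OE these shares were 1.51% and 0.745%. The added values moved to the same side as the densest bin in 63 of 63 exons of that size for siTRA vs CTL and in 30 of 30 for CGG_siTRA vs CGG. For the 42 shortest exons the added median was -0.0297 in CGG_TRA, -0.00957 in siTRA and -0.00331 in CGG_siTRA relative to CTL.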

How the data were processed

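Total RNA of COS-7 cells was made into ribosomal-RNA-depleted libraries, per the labels' protocols. The submitters' processing notes list cutadapt 1.14, STAR 2.5.2, DESeq2 and the human build GRCh38.p10, with no role or order. Monkey reads that differ from the human sequence may not have been placed. The authors deposited raw counts per exon bin in DEXSeq tables, with p-values and log2 fold changes of bin use, and test scores, per the file headers. They also deposited normalised values per bin, a signal scaled by 1 factor per library, from which whole reads were recovered within 0.1 of a read for 100% of values. The deposited EventPointer tables give each event its p-value, z score and Delta PSI, per the file headers; the program's version is not given in the sources used here. EventPointer p-values were adjusted by Benjamini-Hochberg over the 6311 events of each table.

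The group of a count column follows from which DEXSeq tables, named for 2 groups each, contain it; replicate numbers of the labels cannot be tied to columns. Bin use was tested in edgeR 4.0.16 (R 4.3.3; diffSpliceDGE on a quasi-likelihood fit, TMM scaling, trended dispersion) on bins that reached 10 normalised counts in 3 or more libraries, in genes with at least 2 such bins; calls had an adjusted p under 0.05. The script was tested on simulated counts. An event's inside bins lay between its flanking exons and adjoined neither. Of the 1580 events, 15 held no bin, 6 only bins joined to a flanking exon and 4 only bins below the minimum. The longest tested inside bin stood for the exon; the densest was added after the values were seen, because the longest can be intron. Alternatives used DESeq2 1.42.0, limma 3.58.1 on log2 values with a pseudocount of 1 or 4, other filters and libraries left out.

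Members, lists and rules were chosen with earlier results of these data known. Exons were named by size of change among called exons, by length, and by calls shared between knockdowns; the other short exons, the set lowest in CGG and TRA_OE and the densest-bin exons were named after their values were seen. None of 1361 gene IDs could be paired with a name (0 matched), so gene lists were not tested and marker genes of the cell line not checked. No sequence is printed, since no genome of this build was used here. Exact permutation tests of 3 libraries against 3 cannot go below a p of 0.1, so none was used.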

Additional observations from a re-analysis of the deposited data

Results flagged for a closer look

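At 2 exons the density in every library moved one way with the knockdown alone and the opposite way with the knockdown added to the repeat, and at 1 of them the repeat did likewise without and with the knockdown. The differences between these effects were not tested. No share of all exons or bins that do so is given here, so a search alone could turn up such exons. At the 39-nt exon on chromosome 17 (50975863 to 50975901) the log2 ratio of mean densities was -0.172 in siTRA over CTL and 0.231 in CGG_siTRA over CGG. At the 21-nt exon on chromosome 6 (167913403 to 167913423) it was -0.593 in siTRA over CTL and 0.292 in CGG_siTRA over CGG. At the same 21-nt exon it was -0.627 in CGG over CTL and 0.258 in CGG_siTRA over siTRA. By bin use, the log2 change of that exon was -0.703 in siTRA vs CTL but only 0.0878 in CGG_siTRA vs CGG. It was -0.542 in CGG vs CTL and 0.249 in CGG_siTRA vs siTRA.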

How the results depend on the processing

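No paired analysis was possible because the count columns carry no replicate numbers of the labels. The numbers of exons called by bin use depended on the tool. In the order CGG vs CTL, TRA_OE vs CTL, siTRA vs CTL, CGG_siTRA vs siTRA, CGG_siTRA vs CGG and TRA_OE vs siTRA, limma called 53, 52, 62, 32, 43 and 63 exons with a pseudocount of 1 and 53, 50, 62, 22, 47 and 71 with a pseudocount of 4, and DESeq2 called 28, 32, 52, 1, 29 and 27. All bins were also called more often: the share of all bins was 1.32%, 1.29%, 2.38%, 1.73%, 1.12% and 2.38% with limma at a pseudocount of 1, 1.11%, 1.15%, 2.02%, 1.23%, 0.995% and 2.03% at a pseudocount of 4, and 0.41%, 0.479%, 1.23%, 0.118%, 0.673% and 0.738% with DESeq2. Fitting only the libraries of the groups compared gave 54 in CGG vs CTL, 38 in TRA_OE vs CTL and 5 in TRA_OE vs siTRA, beside 1.22%, 0.802% and 0.127% of all bins. Counting an event when any inside bin was called gave 14 in TRA_OE vs siTRA. The densest inside bin, chosen after seeing the data, gave 7 in TRA_OE vs CTL, 6 in CGG_siTRA vs CGG and 4 in TRA_OE vs siTRA.

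Leaving out each library in turn gave 5 to 8 calls in CGG vs CTL, 7 to 15 in TRA_OE vs CTL, 12 to 23 in siTRA vs CTL, 2 to 20 in CGG_siTRA vs CGG and 4 to 23 in TRA_OE vs siTRA, and 0 to 0 in CGG_siTRA vs siTRA. The count moved by over 1.5 times without CTL c (5) or CGG a (5) in CGG vs CTL, without CTL a (8), CTL c (8) or TRA_OE b (7) in TRA_OE vs CTL, and without CTL a (14), CTL b (15) or CTL c (12) in siTRA vs CTL. It did so without any of the 6 libraries in CGG_siTRA vs CGG, and without TRA_OE a (5), TRA_OE b (4), siTRA b (4) or siTRA c (23) in TRA_OE vs siTRA. The calls over all bins moved as well, with 66 as the lowest and 578 as the highest in CGG_siTRA vs CGG. Leaving out a library can lower a count by its smaller number of samples alone.

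EventPointer calls at an adjusted p under 0.01 numbered 21 in CGG vs CTL, 21 in TRA_OE vs CTL, 0 in CGG_siTRA vs siTRA, 1 in CGG_TRA vs CGG and 2 in CGG_TRA vs CGG_siTRA, beside 0.84% and 0.808% of all events in the 2 comparisons with CTL. With an added Delta PSI of 0.1 or more in size at an adjusted p under 0.05 they numbered 13, 11, 0, 0 and 2 in the same order. The shares of all events under that rule were 0.523%, 0.46%, 0.0317%, 0.0634% and 0.206%. At an unadjusted p under 0.05 and that size they numbered 23 in CGG vs CTL (1.46%, beside 1.13% of all events). In CGG_siTRA vs siTRA they numbered 3 (0.19%, beside 0.491% of all events). No named exon reversed its direction under these alternatives: of 66 calls of named exons, 52 passed with DESeq2, 38 and 49 with limma at a pseudocount of 1 and 4, and 56 with only the libraries compared, and all 66 passed with another scaling (DESeq2 size factors). Over all single libraries left out, these calls passed 235 times and were lost 161 times. Where a count moved, the cause was not tested. Delta PSI carries no error here, and exons with low counts limit what 3 libraries a group can show.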
